A study of Tachysurus fulvidraco x Tachysurus vachelli with 6 samples.

Results

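Kinetochore genes were the 68 genes, of 25792 in the deposited expression table, that either carried the GO term for the kinetochore (or for the kinetochore of condensed chromosomes) or had a product named as a centromere protein or a kinetochore protein. Products named as kinesins were to be left out, and none met the other criteria. The GO term alone selected 32 genes, the product name alone 22, and both selected 14. The values came from gills of juvenile yellow catfish hybrids with Tachysurus fulvidraco mothers and P. vachellii fathers. The transport group held 3 libraries from fish transported for 16 h, and the control group held 3 libraries from untreated fish. All 6 libraries were made from the second gill of the left side, and both groups were at the juvenile stage. The labels do not say whether a library was made from 1 fish or from several, so p-values measure only the spread between these libraries, which may be technical.

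The kinetochore is the protein assembly that joins a chromosome to the microtubules of the spindle during cell division. Its inner layer, the constitutive centromere-associated network, sits on nucleosomes that hold the histone variant CENP-A, and its outer layer of KNL1, MIS12 and NDC80 complexes grips microtubules. Around these lie a fibrous corona that recruits dynein, the sensors of the spindle checkpoint, and the chromosomal passenger complex that corrects wrong attachments. Many of these genes are transcribed mainly in dividing cells, which in fish gill include the precursors of epithelial cells and ionocytes as well as blood-borne and connective tissue cells.

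The libraries held between 42962760 and 58495713 estimated counts. Marker genes of ionocytes, the ion-transporting cells of the gill, were all present, with summed levels between 1554 and 2219 FPKM in the transport libraries and between 1244 and 1538 FPKM in the controls (FPKM, fragments scaled to transcript length and library size). Marker genes of skeletal muscle did not follow the groups. The 22 found summed to 203, 795 and 1332 FPKM in transport replicates 1, 2 and 3, against 1502, 284 and 295 FPKM in control replicates 1, 2 and 3, with 6 of the 22 at 0 in every library. Control replicate 1 therefore stood apart from the other controls in its muscle transcripts. The calls of kinetochore genes are also given without it, as without each other library.

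Of the 68 kinetochore genes, 65 had enough counts to be tested, and 10 of them were lower after transport while none was higher (edgeR quasi-likelihood test, adjusted p under 0.05, Benjamini-Hochberg adjustment over 20771 genes). Over all genes tested, 3.46% were called lower and 3.23% higher. The 10 genes were cenpw, cenpt and cenpi of the inner kinetochore, spc24 of the outer kinetochore, kntc1 of the corona, an INCENP-like gene of the passenger complex, and knstrn, mtbp, phf2 and the uncharacterized LOC113638040. At an unadjusted p under 0.05, 25 of the 65 were lower and none was higher, where 12.7% of all genes were lower and 12.3% higher. DESeq2 and limma also called no kinetochore gene higher. In either direction, 6.69% of all genes were called by edgeR. The fold change was negative for 48 of the 65, against 49.8% of all genes. The median log2 fold change (transport minus control) was -0.22 over the 65, with a range of -1.61 to 0.41, and 0.00 over all genes. The groups did not overlap in FPKM for 25 kinetochore genes that were lower and 1 that was higher, where 15% and 17.6% of all genes did so. The 3 genes with too few counts were a CENP-F-like gene (LOC113643940), a second gene named centromere protein N (LOC113647886) and the uncharacterized LOC113663192.

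**Figure D1:**
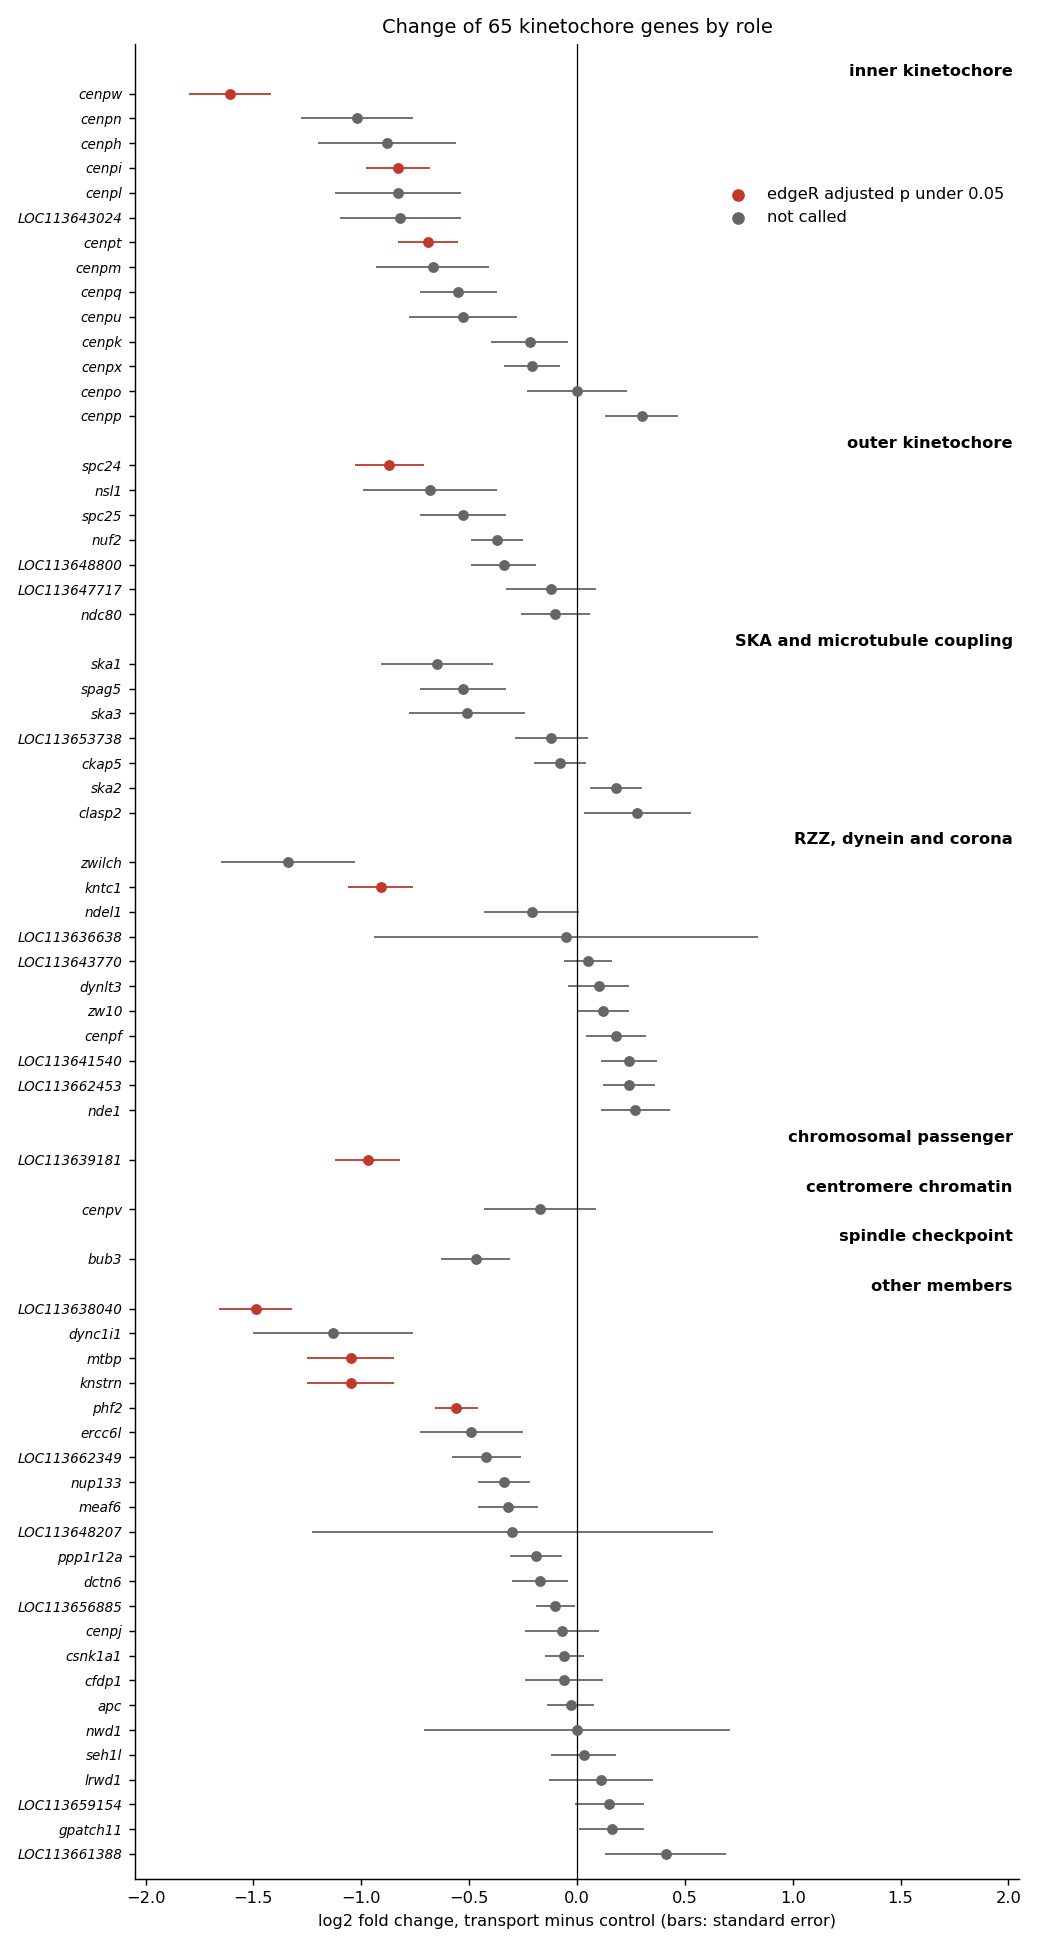
Log2 fold change (horizontal axis, transport minus control) of the 65 kinetochore genes tested, grouped by role, with bars for the standard error and red points for an edgeR adjusted p under 0.05. The 10 red points all lie left of zero, between -1.61 (cenpw) and -0.56 (phf2), and the RZZ, dynein and corona group lies mostly at or right of zero.

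The calls depended on single libraries. Without transport replicate 2, and likewise without transport replicate 3, none of the 10 genes stayed called, and only 0.00469% and 0.342% of all genes were still called lower. Without transport replicate 1, and likewise without control replicate 3, cenpw and LOC113638040 stayed called, with 0.775% and 0.802% of all genes called lower. Without control replicate 2, 5 stayed called (cenpw, LOC113638040, LOC113639181, kntc1 and phf2), with 2.17% of all genes lower. Without control replicate 1, 14 kinetochore genes were called lower, the 10 and cenpn, cenph, zwilch and bub3, with 3.93% of all genes lower. All 10 kept an unadjusted p under 0.05 in each of these 6 fits, but they had been selected on the same libraries. The share of all genes under that p was not counted in these fits. Their negative sign was kept too, but it had little room to change. Every transport FPKM of these genes lay below every control FPKM. Among other scalings, filters and tools, DESeq2 called 12 kinetochore genes lower (6.8% of all genes), adding cenpn and zwilch. A minimum count of 50 (4.84% of all genes) and counts divided by 4 (4.7%) gave 11, adding zwilch. Exactly the same 10 were called with DESeq2 size factors (3.54% of all genes lower), upper quartile scaling (3.6%), no filter on low counts (2.67%) and limma on log2(FPKM + 1) (2.98%) or log2(FPKM + 0.1) (3.03%).

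**Figure D2:**
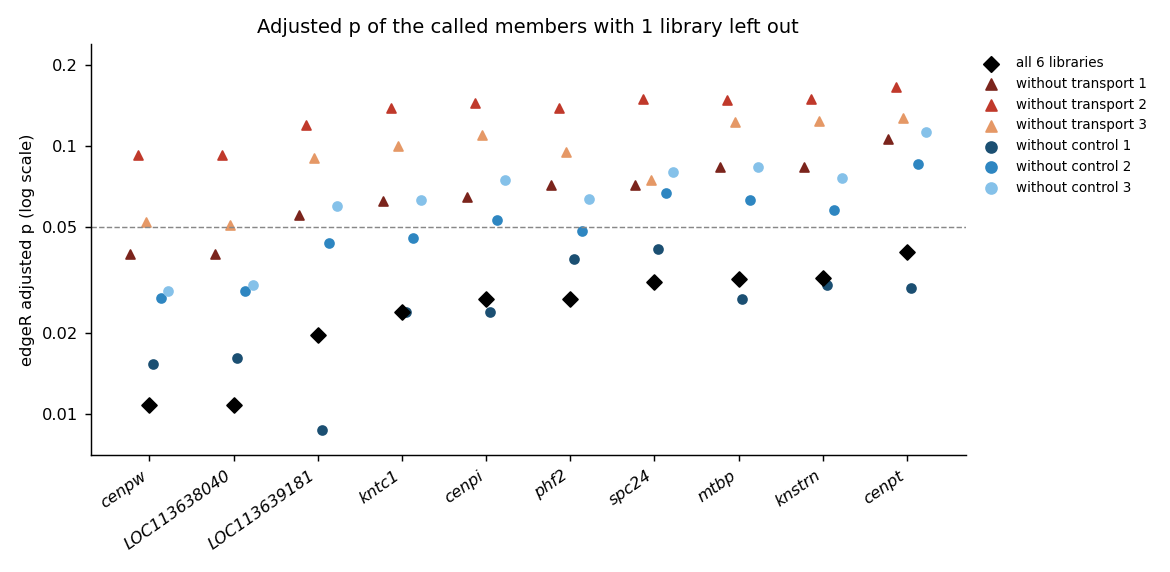
Adjusted edgeR p (log axis) of the 10 called kinetochore genes with all 6 libraries (black diamonds) and with 1 library left out (triangles for transport libraries, circles for controls). The dashed line is 0.05. Leaving out transport replicate 2 or 3 put all 10 above the line, between 0.0921 and 0.166 without replicate 2.

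The inner kinetochore was the group with the lowest median among the 4 named roles with several members. Of 14 genes tested, 3 were called lower (cenpw, cenpi and cenpt), 12 had a negative fold change, and 9 had groups that did not overlap, all of them lower. Over all genes, 3.46% were called lower, 49.8% had a negative fold change and 15% had groups that were lower without overlap. The median log2 fold change was -0.68. Summed over its 15 genes, the level was 84.8, 84.9 and 86.2 FPKM in transport libraries, against 108, 129 and 128 FPKM in controls. The transport sums lay close together (SD 0.783), the control sums spread further (SD 12.0), and the groups did not overlap.

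CENP-W is a small histone-fold protein that pairs with CENP-T, and the pair binds centromeric DNA and links it to the NDC80 complex. The gene cenpw had 4.49, 4.52 and 4.46 FPKM in transport libraries, against 13.1, 15.6 and 11.8 FPKM in controls. All 3 transport values were nearly the same and lay far below the lowest control. This was the lowest fold change among the kinetochore genes, -1.61 on the log2 scale (SE 0.19, adjusted p = 0.0108, edgeR), with a transport mean at 33.2% of the control mean. Its call was lost without transport replicate 2 (adjusted p = 0.0923, edgeR) and without transport replicate 3 (0.0519).

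The partner gene cenpt had 4.87, 5.52 and 5.45 FPKM in transport libraries, against 7.32, 8.86 and 9.08 FPKM in controls. The groups did not overlap, and the gap was smaller than for cenpw (log2 fold change -0.69, SE 0.14, adjusted p = 0.0403, edgeR). The call of cenpt was kept without control replicate 1 (0.0296) and lost in the other 5 fits that left out a library (edgeR adjusted p from 0.0858 to 0.166). CENP-S and CENP-X form a second histone-fold pair that joins CENP-T and CENP-W, and also works in DNA repair. Transcripts of cenpx were the most abundant of the inner kinetochore, with 26.3, 26.0 and 28.4 FPKM in transport libraries against 29.5, 30.9 and 31.9 FPKM in controls. The groups of cenpx were separate but close, and it was not called (log2 fold change -0.21, SE 0.13, adjusted p = 0.365, edgeR). The FPKM of cenpw was 0.17, 0.17 and 0.16 times that of cenpx in transport libraries, against 0.44, 0.51 and 0.37 times in controls. These gene pairs and those below were chosen after their values were seen, and their ratios are a description without a test. The CENP-S-like gene LOC113643024 had a log2 fold change of -0.82 (SE 0.28) and was not called (adjusted p = 0.126, edgeR).

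CENP-H, CENP-I, CENP-K and CENP-M form a subcomplex that helps to hold CENP-T at the centromere. The gene cenpi had 5.58, 4.92 and 5.05 FPKM in transport libraries, against 8.04, 10.4 and 8.86 FPKM in controls. Every transport value was below every control value, and cenpi was called lower (log2 fold change -0.83, SE 0.15, adjusted p = 0.0268, edgeR). It was called without control replicate 1 (0.0240) and not in the other 5 fits with a library left out (0.0528 to 0.145). The gene cenph had a similar fold change with a larger error (-0.88, SE 0.32, adjusted p = 0.144, edgeR). Its transport values were 2.33, 2.40 and 3.05 FPKM and its control values 3.00, 5.46 and 5.69 FPKM, so that control replicate 1 overlapped the transport range. Without that library cenph was among the genes called. The log2 fold changes of cenpm and cenpk were -0.67 (SE 0.26) and -0.22 (SE 0.18), and neither was called.

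CENP-N reads the CENP-A nucleosome and pairs with CENP-L. Transport libraries had 2.99, 3.12 and 3.96 FPKM of cenpn, against 4.92, 8.50 and 6.76 FPKM in controls. The groups were separate, and the fold change lay just outside the threshold (log2 -1.02, SE 0.26, adjusted p = 0.0646, edgeR). DESeq2 called it lower. A second gene annotated as centromere protein N overlaps cenpn on the other strand, and reads of the pair cannot be told apart unless the counting used strand, which is not stated. The gene cenpl had a log2 fold change of -0.83 (SE 0.29) and was not called.

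CENP-O, CENP-P, CENP-Q and CENP-U form the arm of the network that binds the kinase PLK1. These 4 differed among themselves. The fold changes of cenpq and cenpu were -0.55 (SE 0.18) and -0.53 (SE 0.25) on the log2 scale, and that of cenpo was 0.00 (SE 0.23). The gene cenpp had 5.85, 4.97 and 4.24 FPKM in transport libraries, against 3.81, 3.89 and 4.34 FPKM in controls, with transport replicate 3 inside the control range. It had the highest log2 fold change of the inner kinetochore at 0.30 (SE 0.17, adjusted p = 0.326, edgeR). Its span holds 4 genes on the other strand, ecm2, ippk, aspn and ogn, whose reads may be shared with it. Other members overlap a gene on the other strand too, among them cenpl, cenpo, cenpv, ndel1, LOC113643024 and LOC113661388. None of cenpo, cenpp, cenpq and cenpu was called.

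**Figure D3:**
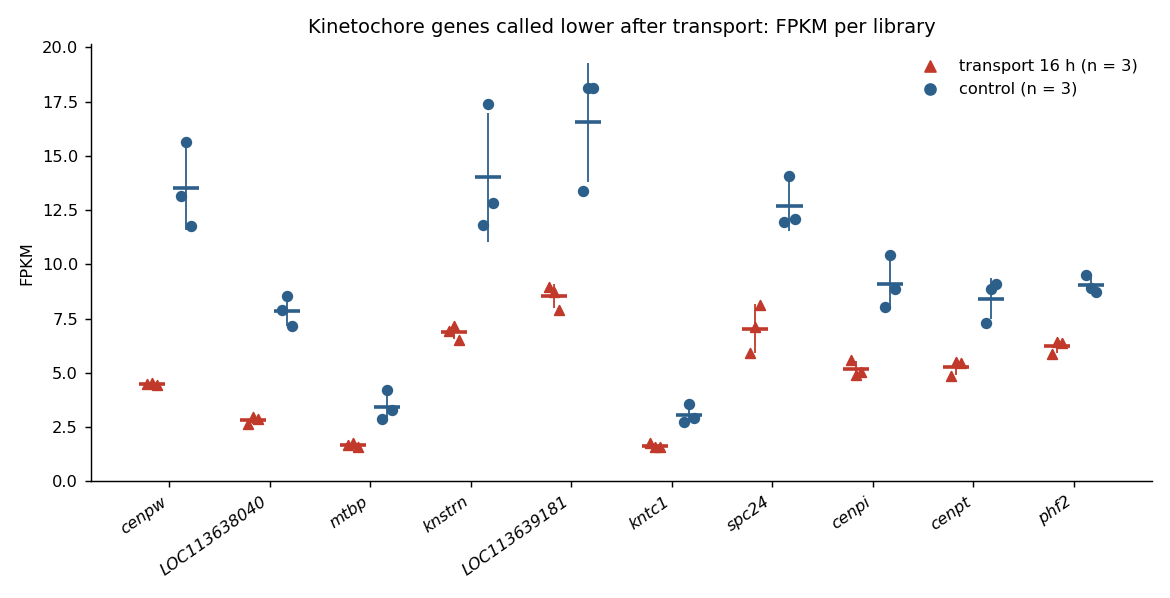
FPKM (vertical axis, from 0) of the 10 called kinetochore genes in each library, with transport libraries as red triangles left of the controls as blue circles; horizontal lines are means and vertical lines are SDs over 3 libraries. In all 10 genes the highest transport value lies below the lowest control value, as in cenpw with at most 4.52 FPKM in transport libraries and at least 11.8 FPKM in controls.

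In the outer kinetochore, all 7 genes tested had a negative fold change and 1 of them, spc24, was called lower. Over all genes, 49.8% had a negative fold change and 3.46% were called lower. The median log2 fold change was -0.37. The sums over the 7 were 51.2, 57.9 and 59.8 FPKM in transport libraries, against 73.5, 80.6 and 67.5 FPKM in controls, with no overlap.

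The NDC80 complex is a rod whose SPC24 and SPC25 end docks on the kinetochore and whose NDC80 and NUF2 end binds the microtubule. The gene spc24 had 5.90, 7.10 and 8.13 FPKM in transport libraries, against 12.0, 14.1 and 12.1 FPKM in controls. The groups were well apart, and the log2 fold change was -0.87 (SE 0.16, adjusted p = 0.0309, edgeR). The call of spc24 was kept without control replicate 1 (0.0412) and lost when any other library was left out (0.0668 to 0.150). At the microtubule end, ndc80 had 10.7, 11.9 and 11.4 FPKM in transport libraries, against 13.9, 12.7 and 9.48 FPKM in controls. All 3 transport values of ndc80 lay inside the control range (log2 fold change -0.10, SE 0.16, adjusted p = 0.742, edgeR). The other subunits lay between these. The gene nuf2 had 10.1, 11.4 and 11.9 FPKM in transport libraries, against 15.1, 14.5 and 12.99 FPKM in controls, separate but not called (log2 -0.37, SE 0.12, adjusted p = 0.124, edgeR). Transcripts of spc25 stood at 7.58, 8.77 and 6.97 FPKM in transport libraries, against 11.9, 12.9 and 8.52 FPKM in controls, where control replicate 3 overlapped the transport values (log2 -0.53, SE 0.20, adjusted p = 0.165, edgeR). The transcript level of spc24 relative to ndc80 was 0.55, 0.60 and 0.71 in transport libraries, against 0.86, 1.11 and 1.27 in controls. These 2 genes had the lowest and the highest fold change of the outer kinetochore, and proteins were not measured.

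The other outer genes belong to the platform between the layers. The MIS12 complex gene nsl1 had a log2 fold change of -0.68 (SE 0.31), the gene similar to polyamine-modulated factor 1 (LOC113647717, another MIS12 complex subunit) -0.12 (SE 0.21), and the KNL1-like gene LOC113648800 -0.34 (SE 0.15). None of these 3 was called. LOC113648800, whose human counterpart is the checkpoint scaffold KNL1, is the next kinetochore gene after the called gene knstrn on scaffold NW_020847857.1, 6695 bases away. No other annotated gene lies wholly inside that gap, but LOC113648800 overlaps LOC113648802 on the same strand.

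The SKA complex follows depolymerising microtubule ends together with NDC80. None of the 7 genes of SKA and microtubule coupling was called (edgeR, with 2 at an unadjusted p under 0.05, both lower), and their median log2 fold change was -0.12. Over all genes, edgeR called 3.46% lower, and 12.7% were lower at an unadjusted p under 0.05. The gene ska1 had 3.53, 4.16 and 3.75 FPKM in transport libraries, against 5.50, 4.37 and 7.83 FPKM in controls (log2 fold change -0.65, SE 0.26, adjusted p = 0.183, edgeR). The transport values were lower without overlap, by a narrow gap to control replicate 2. In contrast, ska2 had 19.4, 17.6 and 17.6 FPKM in transport libraries, against 15.1, 15.9 and 16.5 FPKM in controls. It was the one tested kinetochore gene whose transport values all lay above the controls, but it was not called (log2 0.18, SE 0.12, adjusted p = 0.387, edgeR). The ratio of ska1 to ska2 was 0.18, 0.24 and 0.21 in transport libraries, against 0.36, 0.28 and 0.47 in controls. The gene spag5, which encodes astrin, a partner of the KNSTRN protein on spindles, had a log2 fold change of -0.53 (SE 0.20, adjusted p = 0.164, edgeR). The microtubule plus-end genes clasp2 (0.28, SE 0.25) and ckap5 (-0.08, SE 0.12) were not called, and clasp2 varied widely, with 23.3, 14.7 and 21.7 FPKM in transport libraries and 22.0, 14.5 and 12.2 FPKM in controls.

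The RZZ complex, made of ROD (gene kntc1), Zwilch and ZW10, builds the corona and brings dynein and checkpoint proteins to unattached kinetochores. The gene kntc1 had 1.75, 1.61 and 1.60 FPKM in transport libraries, against 2.75, 3.55 and 2.91 FPKM in controls. It was low in all 3 transport libraries and was called lower (log2 fold change -0.91, SE 0.15, adjusted p = 0.0240, edgeR). The call was kept without control replicate 1 (0.0240) and control replicate 2 (0.0455), and lost in the other 4 fits (0.0624 to 0.138). The partner zwilch had 1.04, 2.06 and 1.46 FPKM in transport libraries, against 2.79, 4.37 and 4.19 FPKM in controls. Its groups were separate and its fold change larger than that of kntc1, but its error was larger too, and it lay just outside the threshold (log2 -1.34, SE 0.31, adjusted p = 0.0531, edgeR). DESeq2 called zwilch lower. The third subunit gene, zw10, whose product also works in membrane traffic between cell divisions, had 15.3, 14.3 and 15.1 FPKM in transport libraries, against 15.1, 13.3 and 12.1 FPKM in controls, with overlapping groups (log2 0.12, SE 0.12, adjusted p = 0.568, edgeR). The level of kntc1 relative to zw10 was 0.11 in each transport library, against 0.18, 0.27 and 0.24 in controls.

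**Figure D4:**
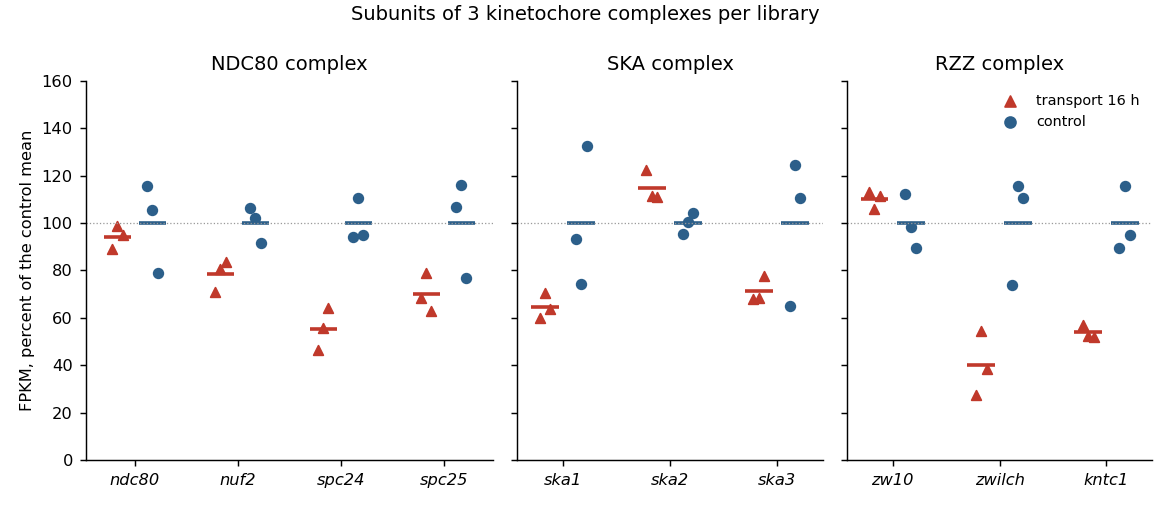
FPKM of the subunits of the NDC80, SKA and RZZ complexes in each library, as percent of the control mean of the same gene (vertical axis, from 0); triangles are transport libraries, circles are controls, and lines are means. Within each complex one subunit stayed near or above the control mean (ndc80 94.3%, ska2 115%, zw10 110.2% in transport libraries) while another was lower (spc24 55.5%, ska1 64.6%, zwilch 40.2%). These subunits were chosen after their values were seen. Of those named, only spc24 was called, and kntc1 (53.9%) was called as well.

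Across the 11 RZZ, dynein and corona genes tested, kntc1 was the one called, 4 fold changes were negative, and the median was 0.10. Over all genes, 3.46% were called lower and 49.8% had a negative fold change. The other corona and dynein genes were not called. The most abundant was LOC113662453, one of a pair of genes for LIS1 (a regulator of dynein), with 41.4, 46.1 and 49.6 FPKM in transport libraries, against 39.1, 34.2 and 41.6 FPKM in controls. Its groups overlapped by a small margin (log2 0.24, SE 0.12, adjusted p = 0.264, edgeR). The dynein adaptors nde1 and ndel1 had log2 fold changes of 0.27 (SE 0.16) and -0.21 (SE 0.22), and cenpf, the gene of a large corona protein that binds them, 0.18 (SE 0.14). A CENP-F-like gene on another scaffold, LOC113636638, varied more within the groups than between them, with 2.49, 2.00 and 11.0 FPKM in transport libraries and 4.50, 10.3 and 1.12 FPKM in controls (log2 -0.05, SE 0.89).

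The chromosomal passenger complex was represented by 1 kinetochore gene, LOC113639181, annotated as inner centromere protein A-like. INCENP is the scaffold that anchors and activates aurora B kinase. LOC113639181 had 8.96, 8.73 and 7.92 FPKM in transport libraries, against 13.4, 18.1 and 18.1 FPKM in controls. The transport values were all below the controls, with control replicate 1 nearest to them (log2 -0.97, SE 0.15, adjusted p = 0.0198, edgeR). It kept its call without control replicate 1 (0.00868) and control replicate 2 (0.0433), and lost it in the other 4 fits (0.0554 to 0.120). The one member on the spindle checkpoint list was bub3, which encodes the adaptor that brings BUB1 kinase to KNL1. It had 20.6, 21.8 and 21.3 FPKM in transport libraries, against 23.8, 34.7 and 28.7 FPKM in controls, separate but not called (log2 -0.47, SE 0.16, adjusted p = 0.118, edgeR). Without control replicate 1, the lowest control, bub3 was called (log2 -0.61, adjusted p = 0.0461, edgeR). The centromere chromatin gene cenpv had 10.4, 16.1 and 20.9 FPKM in transport libraries and 15.5, 19.4 and 17.9 FPKM in controls, with both the lowest and the highest value in the transport group.

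Of the 23 other members tested, 4 were called lower (3.46% of all genes were) and the median log2 fold change was -0.17. The gene knstrn encodes the small kinetochore-associated protein that helps align chromosomes with astrin. It had 6.92, 7.17 and 6.53 FPKM in transport libraries, against 11.8, 17.4 and 12.8 FPKM in controls, well apart (log2 -1.05, SE 0.20, adjusted p = 0.0322, edgeR). The gene mtbp encodes the MDM2-binding protein, which also takes part in the firing of replication origins in human cells. It had 1.68, 1.76 and 1.61 FPKM in transport libraries, against 2.86, 4.19 and 3.29 FPKM in controls, at a low level in both groups but without overlap (log2 -1.05, SE 0.20, adjusted p = 0.0319, edgeR). With a library left out, knstrn and mtbp were called without control replicate 1 (0.0303 and 0.0269) and in no other fit (0.0578 to 0.150 for knstrn and 0.0630 to 0.148 for mtbp).

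LOC113638040 is annotated as an uncharacterized protein with GO terms for the kinetochore and for the mitotic cell cycle checkpoint, and lies on scaffold NW_020848262.1 from 941122 to 945805. It had 2.65, 2.96 and 2.87 FPKM in transport libraries, against 7.89, 8.55 and 7.14 FPKM in controls. Both groups were tight and far apart, with the transport mean at 36.0% of the control mean (log2 -1.49, SE 0.17, adjusted p = 0.0108, edgeR). Its call was lost without transport replicate 2 (0.0921) and, by little, without transport replicate 3 (0.0505). The gene phf2 encodes a histone lysine demethylase. It had 5.89, 6.41 and 6.40 FPKM in transport libraries, against 9.50, 8.92 and 8.73 FPKM in controls, a modest but even difference (log2 -0.56, SE 0.10, adjusted p = 0.0268, edgeR). The call of phf2 was kept without control replicate 1 (0.0380) and control replicate 2 (0.0483) and lost in the other 4 fits (0.0633 to 0.138).

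The remaining 19 other members tested were not called. The most abundant kinetochore gene of all was csnk1a1, for a casein kinase with many roles outside the kinetochore, with 102, 102.5 and 100.4 FPKM in transport libraries, against 102, 114 and 99.1 FPKM in controls, overlapping (log2 -0.06, SE 0.09, adjusted p = 0.719, edgeR). The dynein intermediate chain gene dync1i1 was low, at 0.39, 0.52 and 0.35 FPKM in transport libraries, against 1.07, 0.87 and 0.82 FPKM in controls (log2 -1.13, SE 0.37, adjusted p = 0.120, edgeR). The nucleoporin genes nup133 and seh1l, whose proteins move from nuclear pores to kinetochores in mitosis, had log2 fold changes of -0.34 (SE 0.12) and 0.03 (SE 0.15). The highest log2 fold change among all kinetochore genes, 0.41 (SE 0.28, adjusted p = 0.424, edgeR), was that of LOC113661388, which had 1.10, 0.95 and 1.20 FPKM in transport libraries and 0.96, 0.56 and 0.89 FPKM in controls.

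Of 34 tested genes with a centromere or kinetochore protein as product, 7 were called lower and the median log2 fold change was -0.52. Of 31 found by the GO term alone, 3 were called lower (phf2, mtbp and LOC113638040) and the median was -0.12. The share called lower over all genes was 3.46%, and the difference between these subsets was not tested. By the other GO terms they carried, members with the centromeric region term had 3 of 22 called lower, those with the nucleus term 3 of 19, with cell division 1 of 17, with cell cycle 1 of 13 and with spindle 1 of 3. None of the 10 with the microtubule term was called (edgeR, median log2 fold change 0.02), none of the 10 with the centrosome term (median -0.02), and none of the 16 with the cytoplasm term (median -0.04, against -0.37 for members without it). With 3.46% of all genes called lower, a count of 0 in 10 or 16 genes is near the share over all genes. By level, 7 of the 32 genes with a mean of 2.5 to 10 FPKM were called lower, 2 of the 23 at 10 FPKM and above, and 1 of the 10 below 2.5 FPKM. The median log2 fold change was -0.53 in the band of 2.5 to 10 FPKM and -0.10 at 10 FPKM and above.

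The summed FPKM of all 68 kinetochore genes was 681, 696 and 724 in transport libraries, against 767, 833 and 766 in controls, so the transport mean was 88.8% of the control mean. In controls, replicate 1 was the lowest of the 3 libraries in 12 of the 14 inner kinetochore genes tested and in 32 of all 65. It was the lowest in 3 of 7 outer kinetochore genes and 2 of 7 SKA and coupling genes. The same held for 3 of 11 RZZ, dynein and corona genes and 9 of 23 other members. How often it was the lowest over all genes was not counted. That library also had the most muscle transcripts, whose part in its kinetochore levels was not tested. In the transport group, replicate 3 had both the most muscle transcripts (1332 FPKM) and the highest kinetochore sum (724 FPKM). The ratio of the highest to the lowest value within a group had a median of 1.20 in transport libraries and 1.34 in controls, and was larger in controls for 43 of 65 genes.

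**Figure D5:**
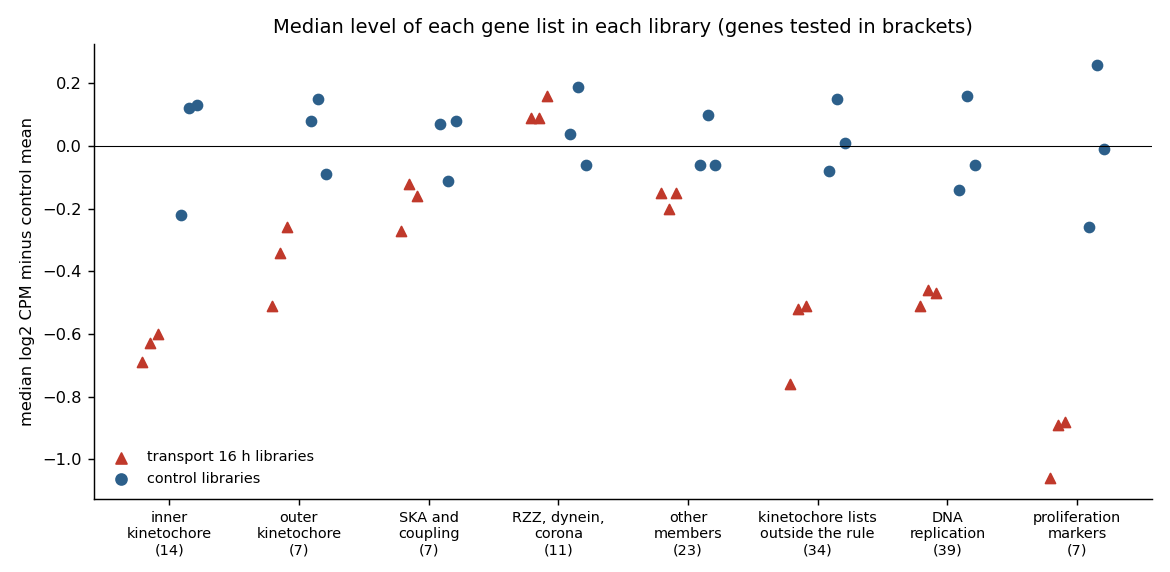
Median over each gene list of log2 CPM (counts scaled to library size) minus the control mean of the gene (vertical axis), 1 point per library, with red triangles for transport and blue circles for controls; the number of genes tested is in brackets. Transport medians of the inner kinetochore lie between -0.69 and -0.60, those of proliferation markers between -1.06 and -0.88, and those of the RZZ, dynein and corona list (0.09 to 0.16) within the control range.

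Markers of dividing cells were lower in the same libraries. All 7 genes of this list were present in every library with negative fold changes, and 6 were called lower (3.46% of all genes were). Their summed level was 180 to 197 FPKM in transport libraries and 267 to 365 FPKM in controls. The Ki-67-like gene LOC113662186, for a protein that coats mitotic chromosomes, had 8.38, 8.19 and 9.55 FPKM in transport libraries, against 13.6, 17.1 and 14.5 FPKM in controls (log2 -0.81, SE 0.13, adjusted p = 0.0202, edgeR). The topoisomerase gene top2a had a log2 fold change of -1.11 (SE 0.15, adjusted p = 0.0136, edgeR). Of 6 markers of B cells, 4 were called lower, with sums of 29.7 to 32.6 FPKM in transport libraries and 47.4 to 52.5 FPKM in controls. Of 3 markers of fibroblasts and cartilage, 2 were called lower, with sums of 79.6 to 93.9 FPKM in transport libraries and 298 to 459 FPKM in controls. Of 2 markers of mucus cells (agr2 and galnt12), agr2 was called lower, and the sums were 79.0 to 116 FPKM in transport libraries and 236 to 428 FPKM in controls. The mucin genes planned for this list were not found. Most planned markers of mucus cells, of fibroblasts and cartilage, and of gill epithelium were missing from the lists. Other lists moved the other way or both ways. Of 5 markers of neutrophils and macrophages, lyz was called higher, with sums of 151 to 162 FPKM in transport libraries and 97.3 to 132 FPKM in controls. The fold change was negative for 2 of these 5, the lowest at -0.91 on the log2 scale. At an unadjusted p under 0.05 (edgeR), 1 of the 5 was lower and 2 were higher (12.7% and 12.3% of all genes were). Of 13 tested ionocyte markers, 2 were called higher (3.23% of all genes were). Gill epithelium had 1 of 3 markers called lower and 1 called higher, pillar and endothelial cells 1 of 5 lower, erythrocytes 1 of 12 higher, and T cells and skeletal muscle none. No gene of the dividing-cell, B cell, fibroblast, mucus and macrophage lists was at 0. Without transport replicate 2 no marker of any of these lists was called, where 0.00469% of all genes were called lower. The dividing-cell list had no call without transport replicate 3 either (0.342% of all genes lower). It had 1 call without transport replicate 1 (0.775%) or control replicate 3 (0.802%). Their part in the kinetochore result was not tested, and in whole gill RNA, fewer cells of a type and less RNA per cell cannot be told apart.

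Kinetochore pathway genes that neither the GO term nor the product name selected were counted with the same fit. Of 34 tested, 11 were called lower and none higher by edgeR (3.46% and 3.23% of all genes), with a median log2 fold change of -0.66. At an unadjusted p under 0.05, 21 were lower and 3 higher, where 12.7% of all genes were lower and 12.3% higher. DESeq2 called 15 lower and 3 higher, where it called 6.8% of all genes lower and 6.21% higher. The calls again depended on single libraries, as did those over all genes. No gene of these lists was called lower without transport replicate 2, where 0.00469% of all genes were. There were 2 lower calls without transport replicate 1 (0.775% of all genes) and 1 without transport replicate 3 (0.342%). Leaving out control replicate 1 gave 11 (3.93% of all genes), control replicate 2 gave 4 (2.17%) and control replicate 3 gave 2 (0.802%). Calls upward were 2 without control replicate 1 (3.08% of all genes), 1 without transport replicate 1 (1.09% of all genes) and 0 in the other 4 fits. For CENP-A loading, oip5, whose product belongs to the MIS18 complex, had 3.43, 4.76 and 5.59 FPKM in transport libraries, against 11.3, 10.8 and 13.2 FPKM in controls, far apart (log2 -1.37, SE 0.24, adjusted p = 0.0268, edgeR). The CENP-A gene LOC113656496 had 4.41, 6.01 and 5.50 FPKM in transport libraries, against 6.70, 8.03 and 11.1 FPKM in controls, separate but not called (log2 -0.72, SE 0.25, adjusted p = 0.131, edgeR).

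Of 8 other genes listed for the passenger complex and the protection of cohesion, 4 were called lower (3.46% of all genes were), 6 had a negative fold change, and the highest was 0.15 on the log2 scale (ppp2r5a, not called). A survivin-type gene, LOC113639462, had 3.43, 2.96 and 2.67 FPKM in transport libraries, against 6.61, 8.01 and 9.68 FPKM in controls, with no overlap (log2 -1.44, SE 0.21, adjusted p = 0.0179, edgeR). The aurora kinase B gene LOC113659084 had a log2 fold change of -0.78 (SE 0.15, adjusted p = 0.0309, edgeR), and cdca8, a borealin gene, -1.18 (SE 0.24, adjusted p = 0.0370, edgeR). The list also holds another survivin gene (LOC113638908) and another borealin gene (LOC113660612), whose values are not given here. Of 11 other genes on the checkpoint list, 3 were called lower (cdc20, mad2l1 and plk1), where 3.46% of all genes were. The fold change was negative for 10 of the 11, and the highest was 0.43 on the log2 scale. The gene mad2l1, for the MAD2 protein that blocks CDC20, had 18.0, 19.8 and 20.9 FPKM in transport libraries, against 31.3, 42.4 and 31.4 FPKM in controls (log2 -0.86, SE 0.16, adjusted p = 0.0317, edgeR). The mitotic kinase gene plk1 had 10.5, 11.9 and 8.67 FPKM in transport libraries, against 19.4, 25.0 and 23.3 FPKM in controls (log2 -1.14, SE 0.16, adjusted p = 0.0164, edgeR). The corona motor gene cenpe was called narrowly (log2 -0.66, SE 0.15, adjusted p = 0.0497, edgeR), and the dynactin-binding plus-end gene clip1 was close to a call upward (log2 0.48, SE 0.13, adjusted p = 0.0673, edgeR). Without control replicate 1 it was called higher (log2 0.59, adjusted p = 0.0325, edgeR), as it was with DESeq2 (log2 0.47, adjusted p = 0.0181).

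Set beside lists of related function, the 15.4% of kinetochore genes called lower compare with 6 of 39 DNA replication genes (15.4%), 8 of 57 kinesin genes (14.0%) and 5 of 21 cohesin and condensin genes (23.8%). Those 5 were the condensin subunit genes ncapd2, ncapd3, ncapg, ncapg2 and smc2. The shares were smaller in 2 further lists. Of 21 spindle pole and microtubule nucleation genes, 1 was called lower (4.76%), and of 19 anaphase-promoting complex and separase genes, 2 (10.5%). Over all genes, 3.46% were called lower. The gene ncapd3 had 4.15, 3.74 and 3.53 FPKM in transport libraries, against 7.36, 9.09 and 8.76 FPKM in controls (log2 -1.16, SE 0.14, adjusted p = 0.0113, edgeR). Transport medians of DNA replication genes lay between -0.51 and -0.46 on the log2 CPM scale, against -0.14 to 0.16 in controls. Without transport replicate 2 no gene of these lists was called lower, where 0.00469% of all genes were. DNA replication also had no call without transport replicate 1, transport replicate 3 or control replicate 3 (0.775%, 0.342% and 0.802% of all genes lower). These counts of 0 are near the shares over all genes. DESeq2 called 17 DNA replication genes, 11 kinesin genes and 8 cohesin and condensin genes lower (6.8% of all genes). The called genes pcna (DNA replication) and ube2c (anaphase-promoting complex) were also counted among the markers of dividing cells. No difference between these lists was tested.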

How the data were processed

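Gill RNA was sequenced in 3 transport and 3 control libraries, extracted with TRIzol and prepared by standard Illumina methods, per the labels' protocols. The authors deposited 1 table of 25792 genes with an estimated count and an FPKM for each library, per the file headers. HISAT and StringTie are named in the submitters' processing notes, with no version. No genome build is stated in the sources used here. Counts as deposited were whole numbers in which the value 4 was several times as frequent as 3 or 5 (427, 113 and 81 genes in control replicate 1), so they were treated as estimated counts, which need not be single fragments. Totals ranged from 42962760 to 58495713 per library. If 1 fragment is worth several units, counting error is larger than these totals imply. Levels in the text are the deposited FPKM values.

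Transport was compared with control by the two-sided quasi-likelihood test of edgeR 4.0.16 in R 4.3.3, fitted to all genes kept by filterByExpr (minimum count 10, minimum total 15; 20771 genes) with TMM scaling and no covariate. The Benjamini-Hochberg adjustment ran over all of them, and the threshold was 0.05. The standard error (SE) of a log2 fold change is its absolute value over the square root of F. DESeq2 1.42.0, limma 3.58.1 on log2(FPKM + 1) and log2(FPKM + 0.1), other scalings and filters, counts divided by 4, a replicate block and leaving out each library were alternatives. Medians per library used log2 CPM with a prior count of 2. The fit was tested on simulated counts in which 200 of 20771 genes were changed, drawn from genes above a minimum mean count. It recovered 30% of 2-fold and 80% of 4-fold changes, and 11 of 121 calls were false. With 4 units per fragment these were 22%, 73% and 8 of 103. The fit to the data called 1389 genes, so the share recovered in the data may differ.

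Genes with a locus number joined a role list through their first listed product. The text names all called members, the most abundant member and the lowest and highest fold change of each role, the most abundant gene and the 2 with the smallest p of each list outside the members (in part), and markers of dividing cells; other genes were named with their values in view. The members and gene lists were chosen with earlier results of these data known. No sequences were used.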

Additional observations from a re-analysis of the deposited data

How the results depend on the processing

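The number of kinetochore genes called lower was 10 with DESeq2 size factors or upper quartile scaling in edgeR, with limma on log2(FPKM + 1) or log2(FPKM + 0.1), and with no filter on low counts. It was 11 with a minimum count of 50 or counts divided by 4, and 12 with DESeq2. Leaving out 1 library gave 0 to 14 kinetochore genes called lower, 0 to 10 genes of the role lists among them (6 with all libraries). Of the other chromosome segregation and replication lists, 0 to 30 genes were called lower (25 with all libraries), and of kinesin genes 0 to 9 (8). Over all genes, 0.00469% to 3.93% were called lower in these fits (3.46% with all libraries). In either direction, 3 to 1498 of all genes were called (1389 with all libraries). DESeq2 called 3238 genes in either direction. It called 48 of the other lists lower, and 6.8% of all genes. The median log2 fold change of kinetochore genes lay between -0.24 and -0.19 across scalings, tools and filters, and between -0.35 and -0.20 with 1 library left out. With 1 library left out, the log2 fold change of csnk1a1 ranged from -0.10 to 0.00 (without control replicate 2), that of cenpv from -0.44 to 0.06 (without transport replicate 1), and that of dctn2 from -0.08 to 0.03 (without control replicate 3; 0.01 without transport replicate 1), so these 3 changed sign. The cause was not tested. Only 53 genes picked by the naming rule were checked for a change of sign, so other genes may change sign too.

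The sample titles do not say whether the replicate numbers pair the samples. Deviations of same-numbered libraries from their group means had correlations of -0.073, -0.030 and -0.044 across genes. No pairing showed in these values, which cannot exclude a pairing by design. With the replicate number as a block, 14 genes were called in either direction. Called lower were 0 kinetochore genes (0.0241% of all genes were), 0 of the role lists, 0 of the other lists and 0 kinesin genes. The 10 genes called without the block had an edgeR adjusted p from 0.0743 to 0.114. Their sign was kept, but it had little room to change, since their transport values all lay below the controls. The planned comparison of promoter windows was not run, since no sequences were used here. With 3 libraries a group, the error is large for some genes, such as dync1i1 at a low level (log2 fold change -1.13, SE 0.37), and why single genes were not called was not tested.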

Other observations

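Genes whose product names a kinesin, which the selection of kinetochore genes was to leave out, numbered 69, of which 57 were tested. Some of the 69, such as klc1, klc2, kifap3 and trak1, are not motors. Of the 57, 8 were called lower and none higher (edgeR, and none higher with DESeq2), and their median log2 fold change was -0.04. Over all genes, edgeR called 3.46% lower and 3.23% higher, and DESeq2 called 6.21% higher. The chromosome-arm motor gene kif4a had 4.12, 4.44 and 4.78 FPKM in transport libraries, against 8.25, 11.7 and 10.5 FPKM in controls (log2 fold change -1.21, SE 0.16, edgeR adjusted p = 0.0146). Every transport value lay below every control value, and the call was lost without any 1 of the 3 transport libraries. The dynactin gene dctn1, chosen after its values were seen, had 0.16, 3.23 and 5.95 FPKM in transport replicates 1, 2 and 3, against 0.16, 0.21 and 0.12 FPKM in controls. Transport replicate 1 was at the control level while the others were far above it, and dctn1 was not called (log2 fold change 4.22, SE 1.12, edgeR adjusted p = 0.0699). Its partner gene dctn2 had 27.7, 29.1 and 31.0 FPKM in transport libraries, against 28.1, 28.6 and 32.0 FPKM in controls.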
